A study of Mus musculus with 7 samples.

Results

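The Hox genes of the mouse lie in 4 clusters, Hoxa, Hoxb, Hoxc and Hoxd, and their accessibility in adult liver was read from lists of nuclease hotspots. A hotspot is a stretch of chromatin where the ends of sequenced fragments, the sites of nuclease cleavage, cluster above background. Members were the genes with protein-coding transcripts in GENCODE release M1 on mm9 whose symbol is Hoxa, Hoxb, Hoxc or Hoxd followed by a number. This gave 39 of the 22365 genes with protein-coding transcripts, of which 11 were in Hoxa, 10 in Hoxb, 9 in Hoxc and 9 in Hoxd. They carry 40 gene identifiers, because Hoxa3 has a pair of them in this annotation. Each cluster was also examined as a window from its first to its last Hox gene with 10 kb on each side.

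The tissue was liver of male C57BL/6 mice aged 8 weeks, with no transgene or treatment named in the labels. Benzonase and Cyanase, endonucleases that work in detergent and reducing agents, were applied to pulverized frozen liver in 3 samples each, with 0.25, 1 and 4 U of enzyme. DNase I, the classical probe of open chromatin, was applied to nuclei purified from fresh liver in 1 sample. The header of the DNase I list names 2 libraries. The enzyme and the tissue preparation (frozen powder or fresh nuclei) cannot be told apart when DNase I is set against the other nucleases. The deposited files hold 1 list per nuclease, called on pooled tags, with 60910 Benzonase, 57675 Cyanase and 72286 DNase I hotspots. They give positions without tag numbers, so the depth behind a hotspot is unknown, there is no spread between replicates, and no test between nucleases was possible. Intervals given for shares are 95% Wilson intervals and cover counting error only.

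Hox genes encode transcription factors with a homeodomain that give cells their position along the body axis of the embryo. In each cluster the genes are ordered by paralogue group, from group 1 at the end expressed first and furthest forward to group 13 at the end expressed last and furthest back. Polycomb complexes keep Hox genes silent where they are not used, Trithorax complexes counteract this, and retinoic acid acts on the group 1 end of the clusters. The promoters are rich in CpG islands, stretches of DNA with many CpG dinucleotides, which at most genes are open even where transcription is low. In adult tissues some Hox genes stay active in connective tissue, endothelial and blood cells, which liver holds beside hepatocytes. A site open in a few cells and a site weakly open in many cannot be told apart in bulk tissue.

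Most Hox genes had no hotspot at a transcription start site (TSS). A gene was counted as marked when at least 1 TSS of its protein-coding transcripts lay inside a hotspot. Benzonase marked 8 of the 39 Hox genes (20.5%, interval 10.8 to 35.5), whereas it marked 57.4% of all genes. Cyanase marked 7 Hox genes (17.9%, interval 8.98 to 32.7) and 55.7% of all genes. DNase I marked 5 Hox genes (12.8%, interval 5.60 to 26.7) and 47.4% of all genes. The upper bound of each Hox interval lay below the share of all genes for the same nuclease. Hotspots of all 3 nucleases held a TSS of 5 Hox genes (12.8%) and of 46.1% of all genes, and 31 Hox genes (79.5%) were marked by none of the nucleases, against 40.9% of all genes.

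Hox genes lay below the share of all genes both with and without a TSS in a CpG island. Without one, this rested on 1 marked gene per nuclease. Of the 39 Hox genes, 19 had a TSS inside a CpG island. Benzonase marked 7 of these 19 (36.8%, interval 19.1 to 59.0), Cyanase 6 (31.6%, interval 15.4 to 54.0) and DNase I 4 (21.1%, interval 8.51 to 43.3). The marked TSS of a gene need not be its island TSS. Hoxd3 is in all 3 of these counts, but its marked TSS, at position 74564785, was outside any island. Its island TSSs, at positions 74549986 and 74570971, were in no hotspot. Among all 11233 genes with a TSS in a CpG island, the shares were 89.9% for Benzonase, 87.8% for Cyanase and 73.7% for DNase I. All 3 nucleases marked 4 of the 19 (21.1%) and 73.5% of all genes of this kind. Thus 12 of the 19 Hox genes with an island TSS (63.2%) were marked by no nuclease, against 9.28% of all genes with one. Of the other 20 Hox genes, each nuclease marked 1 (5%, interval 0.888 to 23.6). The shares of all genes without an island TSS were 24.6% for Benzonase, 23.4% for Cyanase and 20.8% for DNase I. The interval thus held the share of all genes for Cyanase and DNase I and ended just below that for Benzonase.

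**Figure D1:**
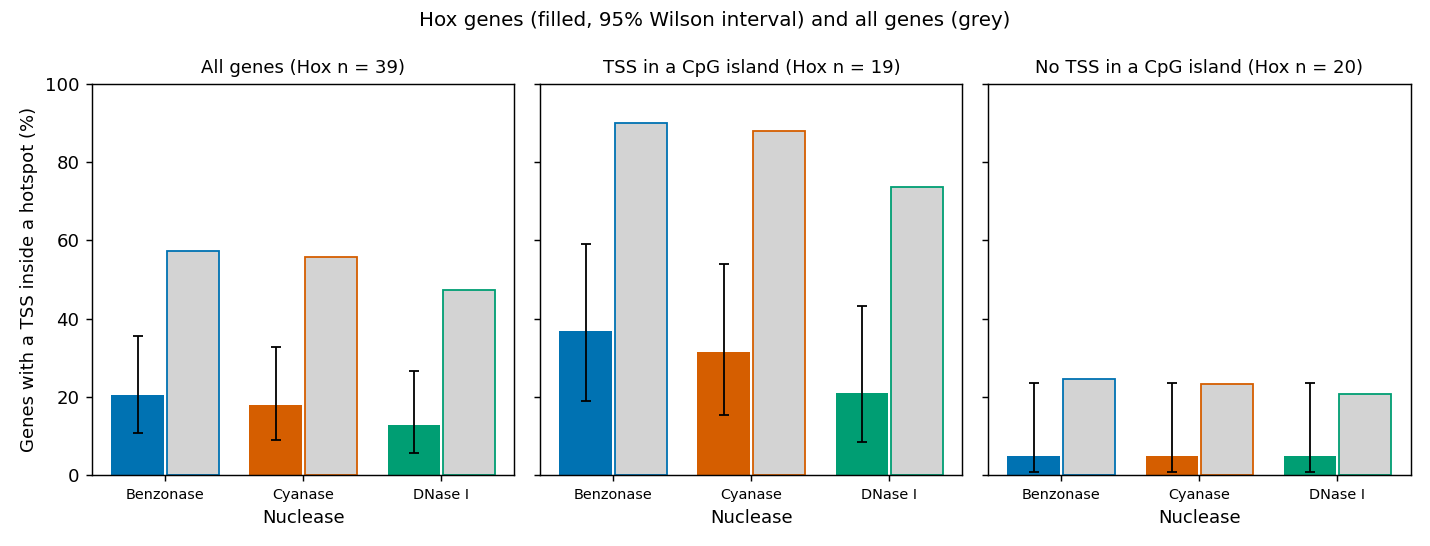
Share of genes (%, y axis) with a TSS inside a hotspot of each nuclease (x axis), for Hox genes (filled bars with 95% Wilson intervals) and all genes (grey bars), as a whole and split by whether a TSS lies in a CpG island. Filled bars lie below the grey ones in each pair, and in the middle panel Benzonase marked 36.8% of 19 Hox genes and 89.9% of all genes.

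Allowing a hotspot within 1 kb of a TSS separated the nucleases. By this wider rule Benzonase reached 17 of the 39 Hox genes (43.6%, against 61.1% of all genes) and Cyanase also 17 (43.6%, against 59.4%). DNase I reached 6 (15.4%, against 51.8%), and the gene gained was Hoxd4. Hox genes therefore often had a Benzonase or Cyanase hotspot close to a TSS but not over it. Of the 19 Hox genes with an island TSS, Benzonase reached 8 (42.1%, against 92.2% of all genes with an island TSS), Cyanase 7 (36.8%, against 90.3%) and DNase I 4 (21.1%, against 78.1%). Of the 20 Hox genes without an island TSS, Benzonase reached 9 (45.0%, against 29.8% of all genes without one), Cyanase 10 (50%, against 28.2%) and DNase I 2 (10%, against 25.2%). Most of the Hox genes gained by the wider rule thus had no island TSS, and for Benzonase and Cyanase these lay above the share of all such genes. The island rule was not widened, and most of these genes had an island near a TSS. It lay at 17 bp for Hoxc9, 51 for Hoxd9, 89 for Hoxc13, 145 for Hoxb6 and 260 for Hoxd4. For Hoxb3, Hoxb5 and Hoxa2 it lay at 321, 607 and 950 bp, and for Hoxb2 and Hoxc6 at 1079 and 1259 bp. How many of all genes without an island TSS had one this near was not counted.

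Hoxa3, Hoxa5, Hoxa7 and Hoxd3 were among the genes marked by all 3 nucleases. Hoxa5, which acts in lung and axial skeleton development, lies on the minus strand at chr6:52151753-52154586 and has 1 TSS, at position 52154586. It lay inside hotspots of Benzonase (chr6:52153574-52154960, 1387 bp), Cyanase (chr6:52154288-52154830, 543 bp) and DNase I (chr6:52154141-52154924, 784 bp). A CpG island of 1098 bp spans the TSS and was touched by hotspots of all 3 nucleases. The 300 bp just upstream of the TSS are printed below on the strand of the gene, with each CpG in capitals (chr6:52154587-52154886, GC content 59.7%, 29 CpGs). Hotspots of all 3 nucleases overlapped this stretch, and the Cyanase hotspot ended inside it, at position 52154830.
Hoxa5 promoter: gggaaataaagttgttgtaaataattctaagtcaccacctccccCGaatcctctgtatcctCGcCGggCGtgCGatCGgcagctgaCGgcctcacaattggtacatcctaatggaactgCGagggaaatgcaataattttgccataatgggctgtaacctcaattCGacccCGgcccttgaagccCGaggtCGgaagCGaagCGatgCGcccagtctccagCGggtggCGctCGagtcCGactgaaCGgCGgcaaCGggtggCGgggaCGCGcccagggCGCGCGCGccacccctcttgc

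At Hoxa3, Hoxa7 and Hoxd3, in contrast to Hoxa5, the hotspots picked out 1 of several alternative TSSs. Hoxa3, needed for the thymus and other pharyngeal organs, has 5 annotated TSSs, and the one at position 52122648 was inside hotspots of 716 bp (Benzonase, chr6:52122351-52123066), 747 bp (Cyanase, chr6:52122254-52123000) and 502 bp (DNase I, chr6:52122570-52123071).

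Hoxa7 has 4 annotated TSSs. The one furthest upstream, at position 52171853, was inside a Benzonase hotspot of 812 bp (chr6:52171346-52172157), a Cyanase hotspot of 614 bp (chr6:52171525-52172138) and a DNase I hotspot of 453 bp (chr6:52171531-52171983). Another of its TSSs, at 52167504, also in a CpG island, lay 3842, 4021 and 4027 bp from the nearest hotspots of Benzonase, Cyanase and DNase I. Hoxd3 has 6 annotated TSSs, and the marked one, at position 74564785 of chromosome 2, overlaps the Hoxd4 gene. Its hotspots ran over chr2:74564544-74565091 for Benzonase (548 bp), chr2:74564544-74565097 for Cyanase (554 bp) and chr2:74564464-74565028 for DNase I (565 bp). Hoxd4 was not counted as marked, but its closest TSS lay only 40, 34 and 103 bp from these hotspots in the same order, so the site could be credited to either gene. Over all annotated TSSs of the Hox genes, 10 of 73 were inside a Benzonase hotspot, 9 inside a Cyanase hotspot and 6 inside a DNase I hotspot.

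The nucleases did not mark Hoxa4, Hoxc10 and Hoxd1 alike. Hoxa4 (ENSMUSG00000000942.9, chr6:52139670-52141752, minus strand) had both TSSs inside a Benzonase hotspot of 913 bp (chr6:52141502-52142414) and a Cyanase hotspot of 937 bp (chr6:52141514-52142450), and the nearest DNase I hotspot was 12389 bp away. Hoxc10, a gene of the lumbar region and hindlimb, had its TSS inside a Benzonase hotspot of 584 bp (chr15:102796746-102797329) and a Cyanase hotspot of 516 bp (chr15:102796772-102797287), with the nearest DNase I hotspot 20480 bp away. Hoxd1, at the group 1 end of its cluster, had its TSS inside a Benzonase hotspot of 569 bp (chr2:74600727-74601295). The nearest Cyanase hotspot lay 157 bp upstream of that TSS and the nearest DNase I hotspot 31971 bp away. No Hox gene was marked by DNase I without both other nucleases.

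The first exon of Hoxa4 also held a narrow Cyanase hotspot of 251 bp with no partner in the other lists. It is printed below, on the strand of the gene with CpGs in capitals, because it had the highest GC content of all regions in the Hox windows, 85.7%, with 40 CpGs (chr6:52141239-52141489, inside the coding part of the exon).
Hoxa4 exon: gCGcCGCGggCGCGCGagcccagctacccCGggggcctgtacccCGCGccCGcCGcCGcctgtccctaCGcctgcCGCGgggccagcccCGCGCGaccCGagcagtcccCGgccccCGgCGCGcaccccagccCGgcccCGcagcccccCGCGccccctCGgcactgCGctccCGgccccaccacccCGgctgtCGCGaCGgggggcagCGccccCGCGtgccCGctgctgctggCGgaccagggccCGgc

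The remaining 31 Hox genes had no TSS in any hotspot, and 11 of them had a hotspot of some nuclease within 1 kb while 8 were more than 10 kb from one. In Hoxa the unmarked genes were Hoxa2, Hoxa6, Hoxa9, Hoxa10, Hoxa11 and Hoxa13. Hoxa2, which patterns the second pharyngeal arch, had a Benzonase hotspot 182 bp from its TSS, and its nearest Cyanase and DNase I hotspots were 4414 and 4941 bp away. Hoxa13, active in the distal limb and urogenital tract, had a Benzonase hotspot at 521 bp and its nearest DNase I and Cyanase hotspots at 3384 and 38336 bp. For Hoxa6 and Hoxa9 the nearest hotspot of any nuclease was 2714 and 3690 bp away, and for Hoxa11 and Hoxa10 it was 10652 and 12478 bp away.

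Hoxb had 10 unmarked genes of 10. Benzonase and Cyanase hotspots were nonetheless denser in this cluster than in the genome (7.22 and 4.64 per 100 kb, genome 2.38 and 2.25). DNase I hotspots were sparser there than in the genome (2.06 per 100 kb, genome 2.83). Hoxb2, Hoxb3, Hoxb5 and Hoxb6 had their nearest hotspot within 1 kb, at 50, 356, 437 and 745 bp in that order. It was from Benzonase for Hoxb5 and from Cyanase for the others. For Hoxb7, Hoxb4 and Hoxb8 the nearest was a Benzonase hotspot, at distances of 1040, 1227 and 2572 bp. Hoxb9 was 7195 bp from a DNase I hotspot and Hoxb1 13335 bp from a Cyanase hotspot. Hoxb13, which lies apart from the other Hoxb genes and is known from prostate and tail, was the Hox gene furthest from a hotspot of any nuclease, 53260 bp from the nearest DNase I hotspot, 67247 bp from Benzonase and 105384 bp from Cyanase.

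In Hoxc, 8 genes were unmarked. Hoxc13, a gene of hair and nails, missed the rule by 9 bp, because a Cyanase hotspot of 259 bp (chr15:102751267-102751525) ended just before its TSS, and its nearest Benzonase and DNase I hotspots were 45212 and 66173 bp away. Hoxc9 and Hoxc6 had hotspots at 275 and 759 bp. Hoxc8, a gene of the thoracic skeleton, was 2700 bp from a hotspot. Hoxc11, Hoxc5, Hoxc12 and Hoxc4 were far from any, at 11888, 14059, 15663 and 19180 bp. The 7 unmarked genes of Hoxd were mostly nearer: besides Hoxd4, already described, Hoxd9 had a Benzonase hotspot at 55 bp. Hoxd12 and Hoxd8 had one at 1447 and 1898 bp. The nearest one was 3767 bp away for Hoxd11, 4399 bp for Hoxd13, a digit gene, and 4564 bp for Hoxd10.

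**Figure D2:**
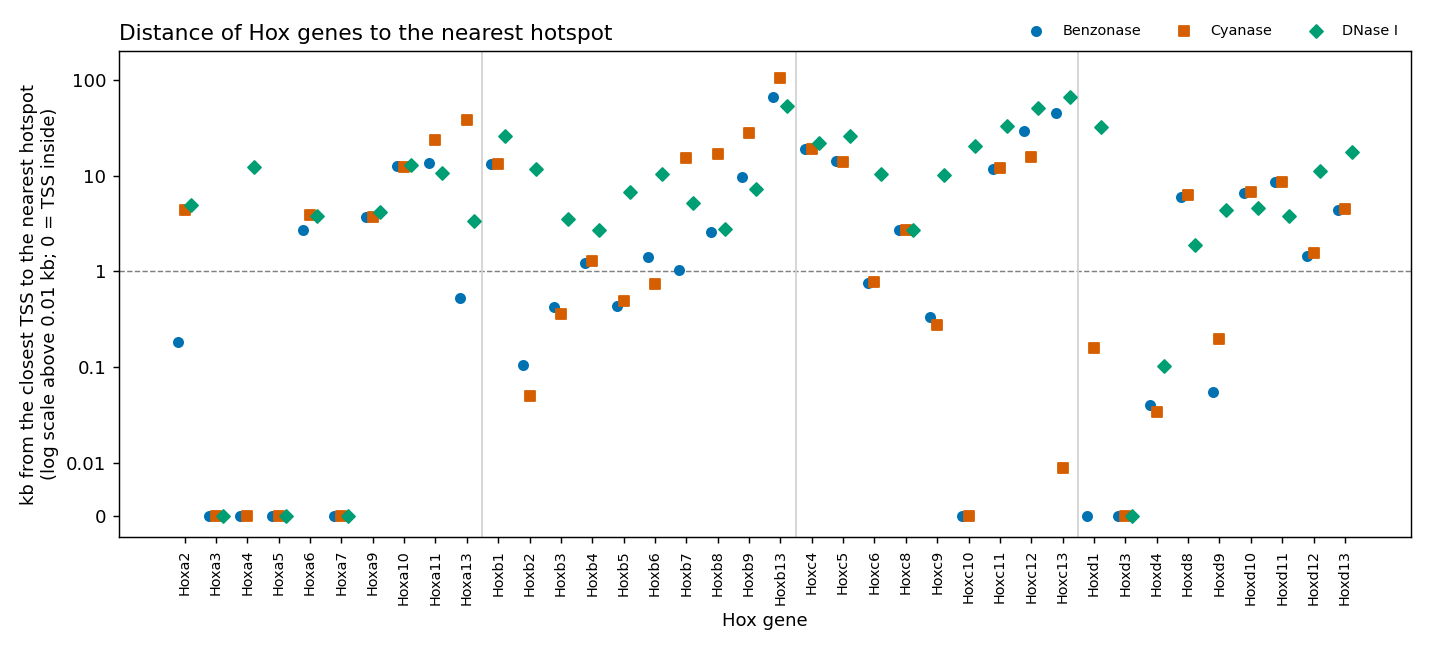
Distance (kb, y axis, logarithmic except near 0) from the closest TSS of each Hox gene reported here (x axis, by cluster and paralogue group) to the nearest hotspot of each nuclease, with 0 for a TSS inside a hotspot and a dashed line at 1 kb. Points at 0 are mostly in Hoxa, none of the Hoxb genes is at 0, and 5 DNase I points lie below the dashed line.

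With any TSS of a gene allowed, the counts of marked genes were highest in relation to the number of genes toward the group 1 end. Of the 8 genes of paralogue groups 1 to 3, Benzonase marked 4, Cyanase 3 and DNase I 3. Of the 15 genes of groups 4 to 8, the counts were 3, 3 and 2. Of the 16 genes of groups 9 to 13, Benzonase and Cyanase marked 1, Hoxc10, and DNase I marked 0. Within 1 kb of a TSS, the counts for Benzonase, Cyanase and DNase I were 7, 6 and 3 in groups 1 to 3, 6, 7 and 3 in groups 4 to 8, and 4, 4 and 0 in groups 9 to 13. The counting intervals overlapped, from 21.5 to 78.5% for Benzonase in groups 1 to 3 and from 1.11 to 28.3% in groups 9 to 13, and from 13.7 to 69.4% and 0 to 19.4% for DNase I, and genes of one group share ancestry. The counts for groups 1 to 3 include Hoxd3. With its marked TSS credited to Hoxd4, in whose gene it lies, Benzonase, Cyanase and DNase I marked 3, 2 and 2 of the 8 genes of groups 1 to 3. In groups 4 to 8 they then marked 4, 4 and 3 of the 15 genes, so the Cyanase share was no longer higher in groups 1 to 3. Hoxa3 is also in the counts for groups 1 to 3. The most upstream TSSs of Hoxa3 and Hoxd3 were in no hotspot, so by that TSS alone neither gene would be marked. The order by group was not counted under that rule. CpG islands did not follow the same order, since 3 of the 8, 7 of the 15 and 9 of the 16 genes had an island TSS.

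Across the windows the clusters held more Benzonase and Cyanase hotspots than the genome as a whole, while DNase I hotspots were near the genome density. The 4 windows covered 572025 bp and held 38 Benzonase hotspots (6.64 per 100 kb, genome 2.38), 30 Cyanase hotspots (5.24, genome 2.25) and 18 DNase I hotspots (3.15, genome 2.83). In bases, Benzonase hotspots covered 3.97% of the windows and 1.88% of the genome, Cyanase hotspots 3.24% and 1.72%, and DNase I hotspots 1.71% and 2.03%. For DNase I, the density was above that of the genome in Hoxa (6.37 per 100 kb) and Hoxd (4.28) and below it in Hoxb (2.06) and Hoxc (0.737). Hotspots in the clusters were narrower, with median widths of 558, 514 and 553 bp for Benzonase, Cyanase and DNase I against 652, 641 and 649 bp in the whole lists. The windows were also unusual in annotation, since 22.4% of their bases were within 2 kb upstream of a TSS against 2.27% of the genome.

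**Figure D3:**
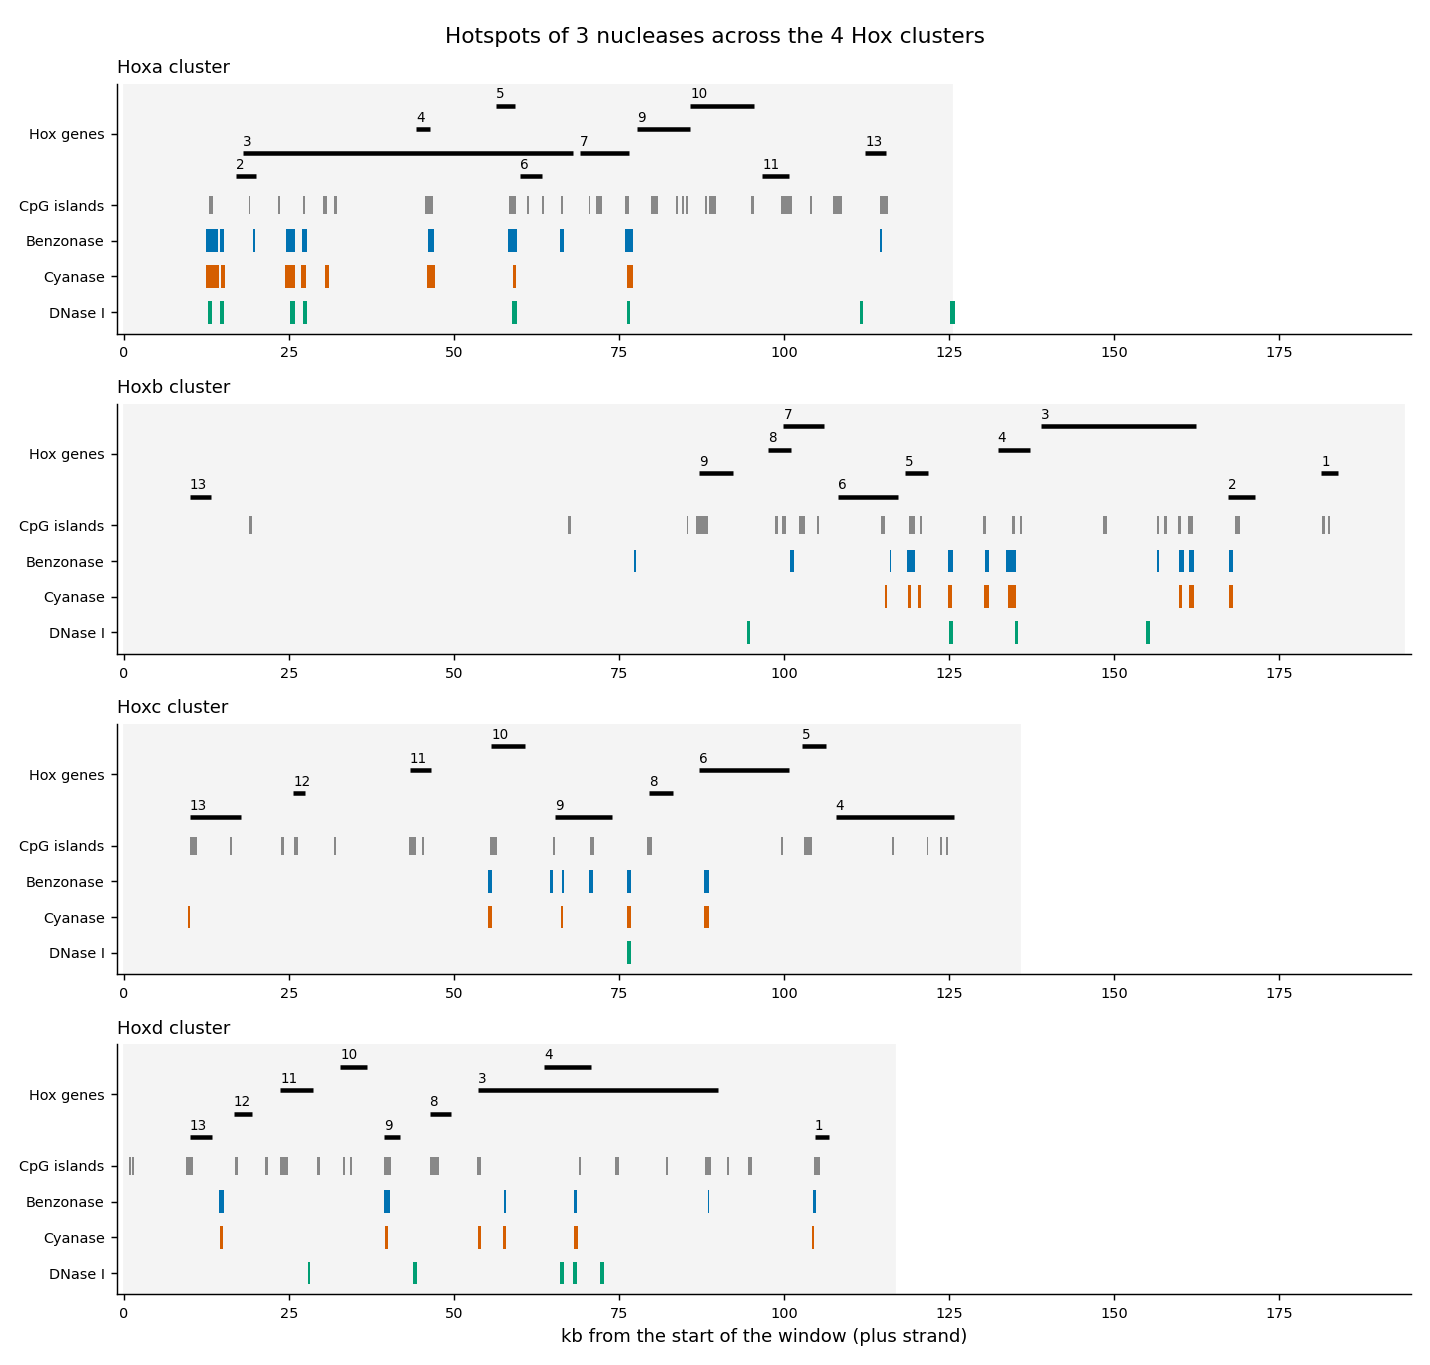
Map of the 4 windows (shaded) in kb from the start of the window, with the Hox genes reported here as black lines labelled by paralogue number, CpG islands in grey and hotspots of the 3 nucleases as coloured boxes. Benzonase and Cyanase boxes outnumber DNase I boxes in each cluster, and Hoxc holds a single DNase I hotspot.

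The clusters differed from each other. Hoxa held 12 Benzonase, 10 Cyanase and 8 DNase I hotspots, with 7.07, 6.31 and 3.58% of its bases covered, the highest coverage of the 4 clusters for each nuclease. Hoxb held 14, 9 and 4, and Hoxc held 6, 5 and 1, covering 2.31, 1.68 and 0.477% of the Hoxc bases. Hoxd held 6, 6 and 5. Hoxa and Hoxd were denser than the 500 kb on each side for all 3 nucleases. Benzonase, Cyanase and DNase I had 9.56, 7.97 and 6.37 hotspots per 100 kb inside the Hoxa window and 3.50, 3.10 and 4.60 outside it. In Hoxd they had 5.14, 5.14 and 4.28 inside and 1.00, 0.900 and 0.700 outside. Around Hoxc the order was opposite, with 4.70, 4.50 and 4.30 per 100 kb outside and 4.42, 3.68 and 0.737 inside. Around Hoxb, Benzonase was denser inside (7.22 against 4.50) and DNase I was denser outside (5.10 against 2.06).

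**Figure D4:**
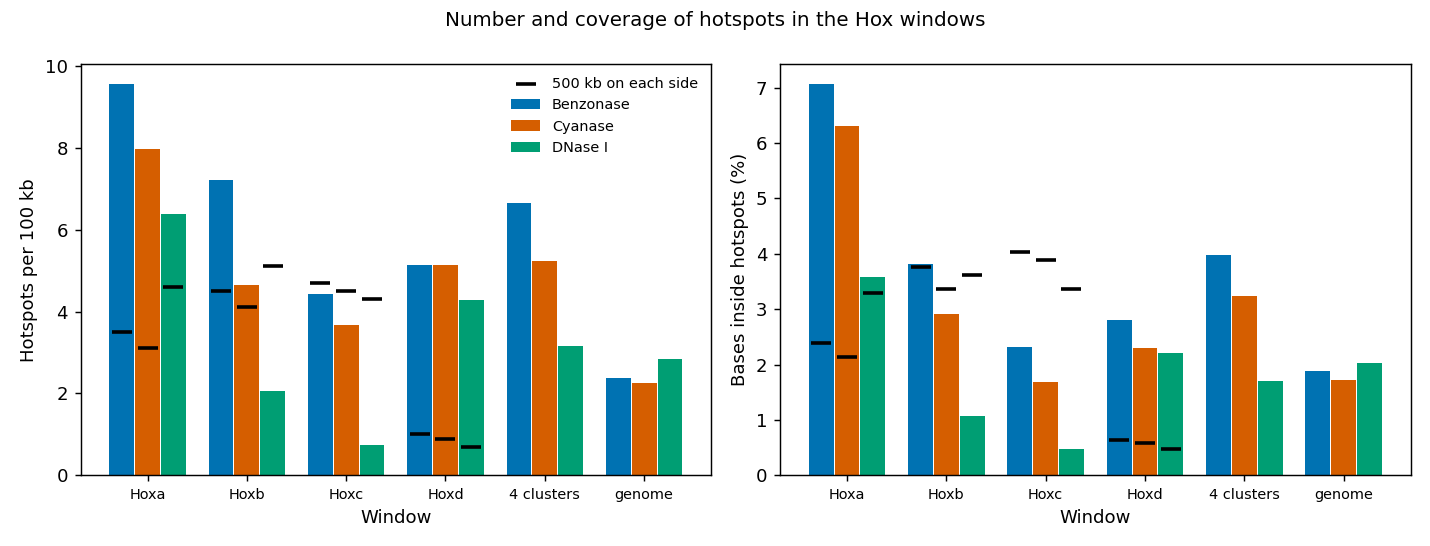
Hotspots per 100 kb (left) and share of bases inside hotspots (%, right) by nuclease in each Hox window, in the 4 windows together and in the genome, with black dashes for the 500 kb on each side of a window. Hoxa and Hoxd bars stand above their dashes and Hoxc bars below theirs for all 3 nucleases, and Hoxb differs between nucleases.

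Long stretches had no hotspot of any nuclease. In Hoxa the longest, 34404 bp (chr6:52172461-52206864), contained the whole of Hoxa9, Hoxa10 and Hoxa11. In Hoxb it was 77247 bp around Hoxb13 (chr11:96045630-96122876, cut at the edge of the window). In Hoxc it was 47087 bp with Hoxc5 and Hoxc4 (chr15:102830188-102877274, also cut at the edge). The longest in Hoxd was 15773 bp (chr2:74569067-74584839) and contained no whole Hox gene. DNase I alone left 76173 bp of Hoxc without a hotspot (chr15:102741534-102817706), with Hoxc13, Hoxc12, Hoxc11, Hoxc10 and Hoxc9 inside.

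The widest hotspot of each nuclease was taken in each cluster. In Hoxb and in Hoxc, those of Benzonase and Cyanase were at the same gene and that of DNase I lay elsewhere. In Hoxa the widest hotspots included the Benzonase hotspot at Hoxa5 described above and a DNase I hotspot of 870 bp over an exon of Hoxa3 (chr6:52120494-52121363). In Hoxb the widest Benzonase and Cyanase hotspots shared a place in Hoxb4, a gene known from blood stem cells, at chr11:96179344-96180816 (1473 bp) and chr11:96179600-96180826 (1227 bp). The widest DNase I hotspot there, 649 bp, lay between Hoxb5 and Hoxb4 (chr11:96170598-96171246). In Hoxc the widest were at Hoxc6 for Benzonase (703 bp, chr15:102829447-102830149) and Cyanase (714 bp, chr15:102829474-102830187) and upstream of Hoxc8 for DNase I (647 bp, chr15:102817707-102818353). In Hoxd they were in Hoxd9 for Benzonase (848 bp, chr2:74535792-74536639), at the shared Hoxd3 and Hoxd4 site for Cyanase, and upstream of Hoxd8 for DNase I (607 bp, chr2:74540168-74540774).

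Merging hotspots that overlapped by at least 1 bp gave 49 regions in the windows, of 94491 in all. Regions with DNase I and at least 1 of the other nucleases were called common, and there were 10 of them (20.4%, interval 11.5 to 33.6), where the genome has 45.4%. DNase I unique regions numbered 8 (16.3%, interval 8.51 to 29.0, genome 28.3%). Benzonase-Cyanase unique regions were the largest class, with 31 (63.3%, interval 49.3 to 75.3, genome 26.3%), of which 13 had both enzymes, 12 Benzonase alone and 6 Cyanase alone. The 10 common regions of the clusters held all 3 nucleases each. Hoxa held 6 of these 10 common regions among its 14, whereas Hoxb had 2 of 17, Hoxc 1 of 7 and Hoxd 1 of 11. Hoxd held 4 of the 8 DNase I unique regions. Counted per list, 31.6% of Benzonase, 20% of Cyanase and 44.4% of DNase I hotspots in the windows overlapped no hotspot of another nuclease, against 14.4, 11.1 and 37.0% in the whole lists.

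The classes differed in GC content in the same order as genome-wide. Mean GC content was 43.6% ± 5.96 (SD over 8 regions) for DNase I unique, 56.6% ± 4.19 (10 regions) for common and 62.6% ± 6.77 (31 regions) for Benzonase-Cyanase unique regions. The genome-wide means were 42.3, 49.5 and 54.7%, so that the last 2 classes were richer in GC in the Hox windows while the DNase I unique class was close to its genome-wide mean. The windows themselves had a GC content of 48.4 to 49.3%. DNase I unique regions ranged from 36.6 to 51.0% and Benzonase-Cyanase unique regions from 50.9 to 85.7%, so the ranges barely overlapped. CpG islands overlapped 0 of the 8 DNase I unique, 5 of the 10 common and 19 of the 31 Benzonase-Cyanase unique regions. Genome-wide they overlapped 0.135, 21.7 and 13.6% of these classes. The 0 of 8 is thus near the genome-wide share, and the order of the last 2 classes was opposite to that of the genome.

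**Figure D5:**
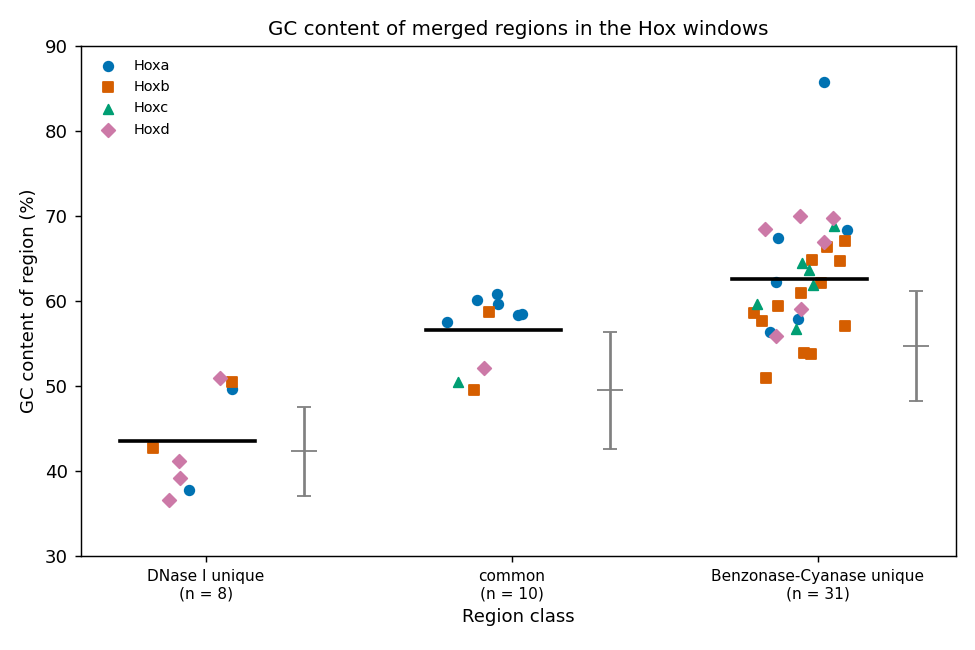
GC content (%, y axis) of each merged region in the Hox windows by class (x axis) and cluster (colours), with black bars for class means and grey marks for the genome-wide mean and SD of the class. Means rise from 43.6% in DNase I unique to 56.6% in common and 62.6% in Benzonase-Cyanase unique regions.

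The contrast can be read in the sequence of a common and a DNase I unique region. The common region upstream of Hoxc8 held the single DNase I hotspot of the Hoxc window, and the region downstream of Hoxa13 was seen by DNase I alone. The central 300 bp of each are printed on the strand of the named gene with CpGs in capitals, and lie at chr15:102817875-102818174 (GC content 53.3%, 8 CpGs) and chr6:52206988-52207287 (38.7%, 5 CpGs).
Hoxc8 upstream: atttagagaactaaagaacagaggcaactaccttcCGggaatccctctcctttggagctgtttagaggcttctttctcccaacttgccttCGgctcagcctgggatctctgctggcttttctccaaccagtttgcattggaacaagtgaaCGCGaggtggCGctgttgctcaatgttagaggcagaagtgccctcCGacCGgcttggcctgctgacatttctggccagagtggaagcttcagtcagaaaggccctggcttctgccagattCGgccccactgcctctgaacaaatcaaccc
Hoxa13 downstream: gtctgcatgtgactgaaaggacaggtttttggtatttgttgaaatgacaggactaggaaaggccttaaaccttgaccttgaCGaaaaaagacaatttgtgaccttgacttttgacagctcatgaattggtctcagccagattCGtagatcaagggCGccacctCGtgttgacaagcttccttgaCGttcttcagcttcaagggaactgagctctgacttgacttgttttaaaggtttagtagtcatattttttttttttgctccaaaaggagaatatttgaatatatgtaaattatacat

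The other DNase I unique regions lay 9734 bp upstream of Hoxa13 (chr6:52220608-52221275), upstream of Hoxb8 (chr11:96140032-96140441), in an intron of Hoxb3 (chr11:96200461-96201076), over an exon of Hoxd11 (chr2:74524256-74524583), upstream of Hoxd8 (chr2:74540168-74540774), and on both sides of the shared Hoxd3 and Hoxd4 site (chr2:74562440-74562992 and chr2:74568538-74569066). The regions of this class held no Hox TSS. The nearest of them to one, upstream of a Hoxd3 TSS, was 1793 bp away.

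CpG islands are dense in the clusters and most of them had no hotspot. The windows held 83 islands, from 11.3 per 100 kb in Hoxb to 19.9 in Hoxa, where the genome has 0.928. Benzonase hotspots overlapped 19 of the 83 (22.9%, interval 15.2 to 33.0, all islands 51.8%), Cyanase hotspots 16 (19.3%, interval 12.2 to 29.0, all islands 49.6%) and DNase I hotspots 4 (4.82%, interval 1.89 to 11.7, all islands 39.1%). The 4 islands with a DNase I hotspot were all in Hoxa, among them those at Hoxa3, Hoxa5 and Hoxa7, and each also had both other nucleases. No hotspot of any nuclease touched 61 islands (73.5%, all islands 47.2%). Among islands of at least 500 bp the shares rose to 32.4, 29.7 and 8.11% of 37 in the windows, and to 73.0, 70.4 and 56.4% of all such islands.

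Of the hotspots in the windows, 63.2% for Benzonase, 56.7% for Cyanase and 38.9% for DNase I touched an exon of a Hox gene, promoters included. The share of all hotspots that touched an exon by this rule was not counted. Of the 38 Benzonase hotspots, 16 were in promoters (within 2 kb upstream of a TSS), 17 over exons outside promoters, 3 in introns and 2 distal. Of the 30 Cyanase hotspots, 15 were in promoters, 10 over exons, 3 in introns and 2 distal, and of the 18 DNase I hotspots, 9, 2, 2 and 4, with 1 downstream of a gene. Exons outside promoters made up 16.4% of the bases of the windows and 2.36% of the genome. They took 44.7% of Benzonase, 33.3% of Cyanase and 11.1% of DNase I hotspots in the windows, against 8.68, 8.29 and 6.88% in the whole lists. A touch of 1 bp was enough to count, so shares of hotspots and shares of bases are unlike measures. By midpoint, 16 Benzonase, 11 Cyanase and 2 DNase I hotspots were over exons outside promoters. With promoters taken as 1 kb on either side of a TSS, the exon counts by touch fell to 10 of 38 for Benzonase and 4 of 30 for Cyanase. Measured from the nearest Hox TSS, 21 Benzonase hotspots were downstream, 9 upstream and 8 over it. For Cyanase these numbers were 14, 9 and 7, and for DNase I they were 5, 8 and 5. In the flanks beyond the outermost genes there were 0 Benzonase, 1 Cyanase and 1 DNase I hotspots.

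The genes next to the clusters were mixed. Skap2, beside Hoxa at chr6:51809165-51962548, and Mtx2, beside Hoxd at chr2:74663860-74716488, were marked by all 3 nucleases. Evx1 on the other side of Hoxa (chr6:52263492-52268372) and Evx2 on the other side of Hoxd (chr2:74491049-74497918), homeobox genes related to Hox, were marked by none. Ttll6 (chr11:95995100-96026765) and Skap1 (chr11:96325907-96620791) beside Hoxb, and Gm17649 (chr15:102751146-102751251) and Smug1 (chr15:102983738-102988383) beside Hoxc, were also unmarked. Of the unmarked neighbours, Evx1 had a Benzonase hotspot 381 bp from its TSS, Skap1 a Cyanase hotspot at 18 bp, and Gm17649 a Cyanase hotspot at 16 bp, which is the one that ended 9 bp before Hoxc13.

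The windows also held 26 noncoding genes and pseudogenes, and Benzonase marked 4 of them, Cyanase 3 and DNase I 2. Shares over all noncoding genes and all microRNA genes were not counted. Whether these counts, or that of the microRNA genes below, are low or high is therefore unknown. Gm15050, which runs opposite to Hoxa3, was marked by all 3. The long noncoding RNA gene 1700109F18Rik opposite to Hoxd8 and the start of Hoxd3 was marked by Benzonase and Cyanase, and 6720416L17Rik beside Hoxd1 by Benzonase. The 6 microRNA genes, of the Mir10, Mir196 and Mir615 families, had no start inside a hotspot. Mir10b, within Hoxd, came nearest, at 417 bp from Benzonase and Cyanase hotspots and 337 bp from a DNase I hotspot.

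Genes that act with or on Hox genes were mostly marked. For scale, Benzonase, Cyanase and DNase I marked 57.4, 55.7 and 47.4% of all genes and 89.9, 87.8 and 73.7% of genes with an island TSS, and the DNase I shares of the first 3 lists that follow are 66.7, 73.7 and 80.0%. The Hox cofactors of the Pbx, Meis and Pknox families were marked by Benzonase and Cyanase in 9 of 9 cases and by DNase I in 6, with Pbx3, Meis3 and Pknox2 left out. Polycomb genes were marked in 19, 19 and 14 of 19 cases, and the genes without DNase I were Ring1, Pcgf2, Cbx2, Cbx6 and Phc1, all of them parts of Polycomb repressive complex 1. Trithorax genes were marked in 10, 10 and 8 of 10, without Mll3 and Setd1b for DNase I. Of 12 genes for retinoic acid receptors and enzymes, Benzonase marked 9, Cyanase 9 and DNase I 8. Aldh1a2, which makes retinoic acid, was marked by Benzonase alone and Aldh1a3, another such enzyme, by Cyanase alone, and Cyp26b1 and Cyp26c1, which degrade it, by none.

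Other homeobox genes of related families were unmarked, where 57.4, 55.7 and 47.4% of all genes were marked by Benzonase, Cyanase and DNase I. Of 15 (the Evx, Cdx, Gsx, Meox, Gbx and En genes with Pdx1 and Mnx1), no gene had a TSS inside a hotspot of Benzonase, Cyanase or DNase I. Within 1 kb of a TSS the counts were 4 for Benzonase, 1 for Cyanase and 0 for DNase I.

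Marker genes of the cell types of liver were scored by the same rule. By it Benzonase, Cyanase and DNase I marked 57.4, 55.7 and 47.4% of all genes, and lists of 4 genes are too short to be set against these shares. Each nuclease marked 8 of 8 hepatocyte genes. Of 4 Kupffer cell genes annotated, Benzonase marked 1 (Emr1), Cyanase 1 (Clec4f) and DNase I 3 (Clec4f, Cd5l and Emr1). Of 4 sinusoidal endothelial genes the counts were 1, 1 and 0 (Kdr), of 4 stellate cell genes 2, 3 and 0 (Lrat and Reln by both frozen-tissue enzymes, Des by Cyanase alone), and of 4 bile duct genes 2, 1 and 1 (Krt19 by Benzonase alone). Within 1 kb the endothelial counts were 1, 1 and 1, the stellate counts 3, 4 and 1, and the bile duct counts 3, 2 and 1. The Kupffer cell counts stayed at 1, 1 and 3. Among genes listed as markers of other tissues, Myod1, Ckm and Ins2 were unmarked and Gfap, which stellate cells of rodent liver also express, was marked by Cyanase. The part of these cell types in the Hox hotspots was not tested.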

How the data were processed

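Accessible chromatin of mouse liver was mapped by sequencing fragments released by Benzonase, Cyanase or DNase I. The authors used Eland or Bowtie for alignment to mm9. Hotspots were called by them on tags pooled per nuclease, with the false discovery rate set to 0% and the mode as threshold on tag density. The 3 deposited lists hold the positions of hotspots (chromosome, start, end), with no count or score, so depth and precision per hotspot are unknown. There were 0 columns of other samples.

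Positions, converted to count from 1, were compared with GENCODE release M1. CpG islands were the maximal-scoring segments of mm9 (17 for a CpG, -1 for any other base) of at least 200 bp with GC content over 50% and observed to expected CpG over 0.6. Shares carry 95% Wilson intervals. Python 3.11.15, numpy 2.4.6, pandas 2.3.3, scipy 1.17.1, numba 0.67.0 and matplotlib 3.10.9 were used. Overlap counts were checked with bedtools 2.31.1, and the overlap, merging and island steps were tested on simulated data. Replicates were not compared, since the lists are pooled.

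Positions are given in full for Hox genes that the nucleases did not mark alike, the widest hotspot per nuclease and cluster, and the nearest other protein-coding gene on each side. Genes marked by all 3 nucleases, the long stretches without hotspots and the noncoding genes named were added after their values were seen. The members and lists were chosen with earlier results of these data known. Values of 1 Hox gene are not reported here by name, although it is part of the counts.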

Additional observations from a re-analysis of the deposited data

How the results depend on the processing

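Alternatives changed 1 choice at a time, and 128 of 156 values stayed within 1.5 times the reported count, the Wilson interval of a share or 1 SD of a mean. Counting hotspots within 1 kb of a TSS gave 17 Hox genes for Benzonase and 17 for Cyanase. For Benzonase and Cyanase it gave 7 and 6 genes in paralogue groups 1 to 3, 6 and 7 in groups 4 to 8, and 4 and 4 in groups 9 to 13, and 4 and 1 of the other homeobox genes. For DNase I, 3 Hox genes were left with the most upstream TSS only, and 3 without hotspots under the lower width quartile. Leaving out those narrow hotspots left 22 Benzonase, 17 Cyanase and 11 DNase I hotspots in the clusters, since 42.1, 43.3 and 38.9% of the hotspots there are that narrow. With promoters taken within 1 kb of a TSS, exons held 10 Benzonase and 4 Cyanase hotspots and promoters 5 DNase I hotspots, and by midpoint promoters also held 5 DNase I hotspots. With stricter islands (at least 500 bp, GC content over 55%, observed to expected CpG over 0.65), Cyanase touched 29.7% of those in the clusters and 75.2% of all. Crediting the Hoxd3 TSS inside Hoxd4 to Hoxd4, chosen after seeing the data, moved Benzonase, Cyanase and DNase I to 3, 2 and 2 genes in groups 1 to 3. Of the counts per single cluster, 8 of 60 moved. Shares of the region classes and mean GC contents kept within their limits under every alternative tried for them.

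No paired analysis was possible because each list pools the samples of a nuclease, and for the same reason leaving out single samples was not run. The lists hold no tags, so a site under the calling threshold and a closed site look alike, and how much of the low Hox counts comes from depth was not tested.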

Other observations

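Sequence letters known for a few factors were searched on both strands in the central 300 bp of the 49 regions of the Hox windows and of all 94491 regions. A match is a description of the letters and not a site. A short form of the motif of the insulator protein CTCF, CCA then AG then GGC with 2 free bases in each gap, was in 5 of the 49 (10.2%, all regions 3.95%), in regions nearest to Hoxa7, Hoxb4, Hoxb3, Hoxd12 and Hoxd3. The same 12 letters of the match were found at Hoxa7 (chr6:52171808-52171819, in a region of all 3 nucleases) and upstream of Hoxd12 (chr2:74511235-74511246, in a region of Benzonase and Cyanase). The 30 bp around each match are printed on the matching strand with the matched letters in capitals, as the shared stretch between 2 clusters.
Hoxa7: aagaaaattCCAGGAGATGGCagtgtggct
Hoxd12: gccaaacgcCCAGGAGATGGCgagcgtgct

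TGTTTAC, a core of the motif of the liver factors FOXA1 and FOXA2, was in 0 of the 49 regions and in 6.61% of all regions. TGATNNAT, the shape bound by Hox proteins with Pbx, was in 3 of the 49 (6.12%, all regions 11.1%), nearest to Hoxa2, Hoxa4 and Hoxb2. A direct repeat bound by retinoic acid receptors, AGGTCA repeated after 5 free bases, was in 0 of the 49 and in 0.0392% of all regions. The Hox regions are richer in GC than the average region, and these shares were not adjusted for that.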
